A study of Mus musculus with 6 samples.

Results

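CpG methylation was examined across the genes of the Runx family, Runx1 on chromosome 16 from 92580001 to 92850000, Runx2 on chromosome 17 from 44610001 to 44975000 and Runx3 on chromosome 4 from 134650001 to 134760000 (mouse build mm9). These intervals of 270, 365 and 110 kb held 3888, 3937 and 1878 CpGs, 9703 of the 20451903 CpGs listed. Whole-genome bisulfite sequencing had been done on LSK cells of mouse bone marrow, the fraction that lacks lineage markers and carries Sca-1 and c-Kit, where blood stem cells and early progenitors are found. The samples were 3 from Tet2/3 DKO mice, which lack both Tet2 and Tet3, and 3 from wild-type (WT) mice; the labels call them biological replicates and give no age, sex, Cre driver or pooling. The comparison asks how the loss of both enzymes changes DNA methylation, and p-values refer to the spread between these samples. Bisulfite sequencing carries no surface markers, so the labelled cell type could not be checked.

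The Runx genes were chosen partly on these data. Runx3 was included because its megabase, chromosome 4 from 134000001 to 135000000, had the largest DKO minus WT difference of 2417 autosomal megabases, at 76.2% ± 0.568 in DKO and 71.9% ± 0.477 in WT (SD, n = 3 each). The next megabase in that order, on chromosome 13 from 37000001, differed by 4.25 points, against 4.30 points for that of Runx3. Without the Runx3 interval, the other 14043 CpGs of the Runx3 megabase differed by 3.91 points. The megabases that hold Runx1 and Runx2 ranked 122 and 71. Every DKO against WT difference at Runx3 is therefore given as a description, without a p-value, and nothing is read from its counts of windows; Runx1 and Runx2 were included as its paralogues.

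RUNX proteins are transcription factors that bind DNA through a shared Runt domain together with the partner protein CBFβ. Runx1 is required for the emergence of blood stem cells and for normal blood formation, Runx2 for the differentiation of bone-forming osteoblasts, and Runx3 acts in T cells and in sensory neurons. Each gene has an upstream promoter, called P1, and a downstream promoter, called P2, usually in a CpG island, and the resulting proteins differ at their N terminus. TET enzymes oxidise 5-methylcytosine, the first step of its removal. The bisulfite signal used here does not separate 5-methylcytosine from 5-hydroxymethylcytosine.

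The promoter sequences below, from RefSeq (GRCm38.p6), are shown because their CpG content differs between the promoters and because their CpGs fixed their place on mm9. Each runs from 250 bases before the start to 50 bases after it, on the strand of the gene, with every CpG in capitals. RefSeq promoter sequences were placed by the spacing of their CpGs, which had to fall on CpGs listed in the deposited table with no other CpG between them. Runx1 P2 matched with all 35 of its CpGs, Runx3 P1 with 8 and Runx3 P2 with 45, each at 1 place. The P1 sequences of Runx1 and Runx2 hold only 2 CpGs, whose spacing occurs 4 and 5 times in their intervals. They were placed at the distance that RefSeq gives from the nearest placed promoters on either side, where both CpGs were listed.
Runx1 P1, chr16:92826270-92826569, minus strand: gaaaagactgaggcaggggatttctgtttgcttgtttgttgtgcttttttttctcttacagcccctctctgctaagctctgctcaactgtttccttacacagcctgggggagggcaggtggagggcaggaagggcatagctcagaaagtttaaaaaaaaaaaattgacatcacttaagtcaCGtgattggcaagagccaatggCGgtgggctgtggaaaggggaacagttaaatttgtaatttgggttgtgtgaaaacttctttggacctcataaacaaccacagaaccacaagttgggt
Runx2 P1, chr17:44951527-44951826, minus strand: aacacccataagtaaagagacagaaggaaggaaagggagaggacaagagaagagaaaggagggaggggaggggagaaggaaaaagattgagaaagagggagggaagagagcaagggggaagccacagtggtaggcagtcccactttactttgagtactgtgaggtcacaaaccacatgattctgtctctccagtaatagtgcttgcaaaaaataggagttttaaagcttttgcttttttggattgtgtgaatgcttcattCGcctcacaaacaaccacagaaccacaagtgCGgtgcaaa
Runx3 P1, chr4:134676310-134676609, plus strand: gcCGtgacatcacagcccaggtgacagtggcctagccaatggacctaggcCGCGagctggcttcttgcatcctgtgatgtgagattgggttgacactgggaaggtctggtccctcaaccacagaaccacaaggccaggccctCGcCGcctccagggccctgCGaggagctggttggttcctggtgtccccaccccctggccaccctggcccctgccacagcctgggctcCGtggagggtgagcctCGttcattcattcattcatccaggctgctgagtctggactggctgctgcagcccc
Runx1 P2, chr16:92697525-92697824, minus strand: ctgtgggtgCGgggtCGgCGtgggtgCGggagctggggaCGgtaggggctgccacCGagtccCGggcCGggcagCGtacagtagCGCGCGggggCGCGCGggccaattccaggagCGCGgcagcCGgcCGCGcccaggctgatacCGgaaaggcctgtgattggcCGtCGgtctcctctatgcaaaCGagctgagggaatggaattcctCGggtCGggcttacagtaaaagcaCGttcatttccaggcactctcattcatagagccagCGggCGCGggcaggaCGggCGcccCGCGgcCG
Runx3 P2, chr4:134708210-134708509, plus strand: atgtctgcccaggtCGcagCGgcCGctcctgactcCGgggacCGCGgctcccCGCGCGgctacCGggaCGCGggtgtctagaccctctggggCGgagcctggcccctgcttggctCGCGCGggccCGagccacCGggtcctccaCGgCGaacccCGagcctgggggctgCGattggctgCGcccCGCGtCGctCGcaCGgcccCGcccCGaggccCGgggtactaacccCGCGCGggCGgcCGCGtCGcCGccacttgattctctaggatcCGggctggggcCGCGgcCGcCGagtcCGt

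The sequence table held no second start for Runx2, so its P2 was not placed. The 3 P1 sequences share an unbroken run of 18 bases, shown because it is the longest stretch common to them.
Shared by the P1 sequences: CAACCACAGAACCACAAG
This run holds TGTGGT, the core letters of the RUNX binding motif, 2 times on its reverse strand. It begins 26 bases after the start of Runx1 P1, 21 bases after that of Runx2 P1 and 136 bases before that of Runx3 P1. Among 31396 autosomal promoter sequences of the same length, 4 hold it on either strand, and these are the 3 P1 sequences and that of Gm16225, a long non-coding RNA gene whose start overlaps Runx3 P1. The motif TGTGGT occurs 2 times in P1 of Runx1 and of Runx3 and 3 times in P1 of Runx2, and TGCGGT 1 time in P1 of Runx2, counted on both strands without overlap between the motifs. Neither motif occurs in the P2 sequences of Runx1 or Runx3. TGTGGT is found in 16.7% of all these promoters and TGCGGT in 6.46%.

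The libraries held 83560585 to 111763872 read calls at CpGs in DKO and 70815948 to 72747248 in WT, or 4.09 to 5.46 and 3.46 to 3.56 reads per CpG. Over the segment of Tet2 on chromosome 3 in which the mutants lack reads (133132001 to 133136000) the DKO samples had 0 reads each, against 109 to 165 in WT. Over that of Tet3 on chromosome 6 (83352001 to 83355000) they had 14, 0 and 0 reads, against 169 to 231 in WT; both segments had been delimited on these data. Mitochondrial DNA, which is taken as unmethylated and so shows incomplete conversion, was called methylated at 1.71% ± 0.170 in DKO and 1.28% ± 0.0797 in WT (SD, n = 3). Across all autosomal CpGs the level was 81.6% ± 0.826 in DKO and 80.8% ± 0.314 in WT. Levels below are methylated reads over all reads, in percent, and differences are DKO minus WT in percentage points.

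The placed promoters of the family fell into different methylation states. Over the bases from 500 before to 500 after each start, Runx2 P1 was the only placed one at which the groups did not overlap. At this width Runx1 P1, the promoter used mainly in definitive blood cells, was nearly unmethylated. Its level was 1.10%, 2.50% and 1.27% in the DKO samples and 0%, 0% and 2.90% in the WT samples (18 CpGs, 65 to 120 reads per sample), and the groups overlapped. Runx1 P2 had 3.17%, 2.45% and 1.90% in DKO and 2.28%, 0.377% and 2.08% in WT (83 CpGs). Runx1 P1 differed by 0.655 points (exact permutation p = 0.6, n = 3 each) and Runx1 P2 by 0.928 points (exact permutation p = 0.4, n = 3 each).

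Runx2 P1, which drives the bone isoform of Runx2, was partly methylated. Around its start the DKO samples had 63.6%, 50% and 41.4%, and the WT samples 25.9%, 37.7% and 19.7% (9 CpGs, 27 to 76 reads per sample). The lowest DKO sample exceeded the highest WT sample, and the difference was 23.9 ± 8.34 points (SE). The two-sided exact permutation p was 0.1, the smallest that 3 samples against 3 allow. At the pair of CpGs inside the printed Runx2 P1 sequence, 16 of 43 reads were methylated in DKO and 6 of 41 in WT. These reads were uneven between samples, with 10 of 17, 6 of 8 and 0 of 18 methylated in the DKO samples and 0 of 11, 6 of 19 and 0 of 11 in the WT samples, and the groups overlapped.

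Runx3 P1 lay between these states, with 18.1%, 8.98% and 17.9% in DKO and 17.4%, 13.3% and 7.41% in WT (24 CpGs, 27 to 172 reads), and the groups overlapped. In the 1 kb window from 134676001, which holds this start, the groups were apart. There the DKO samples had 20.4%, 11.1% and 10.8% and the WT samples 8.54%, 10.7% and 9.68%. Within the 300 printed bases 7 of 165 reads were methylated in DKO and 0 of 109 in WT, where a count of 0 allows up to 2.75%. Runx3 P2 had 5.45%, 2.44% and 0.473% in DKO and 0%, 1.14% and 1.50% in WT (135 CpGs). Inside the printed Runx1 P2 sequence, 0 of 577 reads were methylated in DKO, which allows up to 0.520%, and 2 of 365 in WT. The printed Runx1 P1 sequence holds 2 CpGs, with only 2 to 23 reads per sample. There 0 of 33 reads were methylated in DKO, which allows up to 9.09%, and 2 of 12 in WT. The limits hold for counting error alone, with the reads at neighbouring CpGs taken as independent.

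The level of P1 was set against that of P2 within each sample. Runx1 P1 minus P2 averaged -0.750 ± 1.21 points over the 6 samples (SD), with P1 above P2 in 2 of 6 samples (two-sided exact sign-flip permutation p = 0.25). This value rests on the width: with 1000 bases on either side of the start in place of 500 it was 10.5 points (exact sign-flip permutation p = 0.0312), and with 250 bases it was 0.927 points (exact sign-flip permutation p = 1). Runx3 P1 minus P2 averaged 12.03 ± 5.04 points, with P1 above P2 in all 6 samples (exact sign-flip permutation p = 0.0312, the smallest that 6 samples allow). It was 12.2 points in DKO and 11.8 points in WT, and over all 6 samples 7.15 points with 250 bases and 35.2 points with 1000. For Runx2, P1 was set against the CpG-densest low-methylated stretch of the locus, 6 kb with 299 CpGs from 44870001 to 44876000. P1 was 36.7 ± 15.3 points higher over the 6 samples, in 6 of 6 (exact sign-flip permutation p = 0.0312). That difference was 47.6 points in DKO and 25.8 points in WT. The stretch was chosen for its low mean level in these same 6 samples. That choice favours this sign, so nothing is read from the p-value. With 250 bases on either side of the start in place of 500, the Runx2 value was 19.0 points with a permutation p of 0.0938, and with 1000 bases it was 62.6 points. With 1 sample left out, neither test can go below 0.0625.

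**Figure D1:**
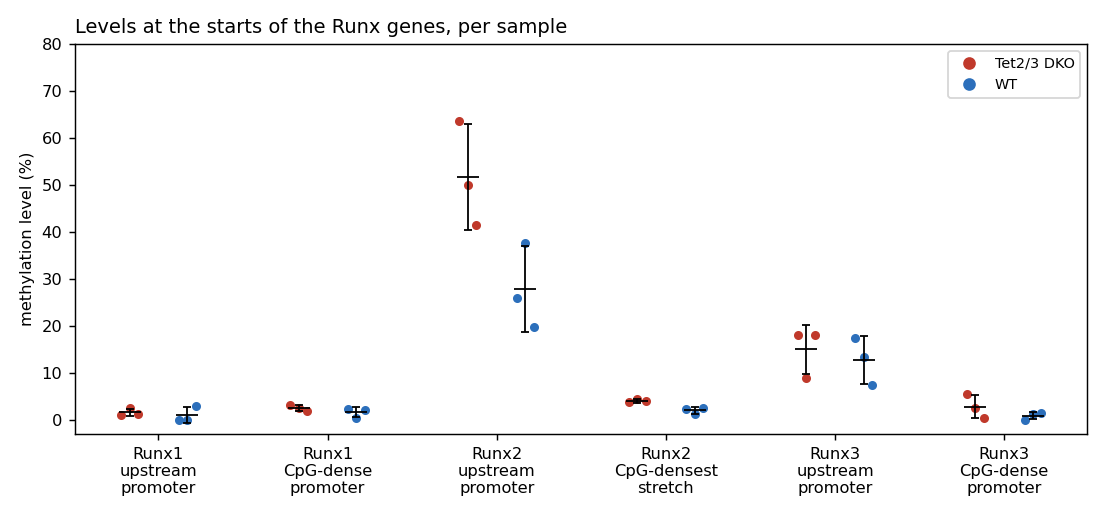
Methylation level in percent around the starts of the Runx genes, from 500 bases before to 500 after each start, and over the CpG-densest stretch of Runx2; points are the 3 Tet2/3 DKO samples (red, left) and the 3 WT samples (blue, right), with bars for the mean and SD. Runx2 P1 has DKO samples at 41.4% to 63.6% and WT samples at 19.7% to 37.7%, while the CpG-dense promoters of Runx1 and Runx3 lie below 6% in all samples.

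Each locus as a whole was more methylated in the DKO samples. The Runx1 locus had 85.8%, 84.6% and 84.8% in DKO and 81.8%, 81.4% and 81.8% in WT, a difference of 3.38 ± 0.389 points (SE). The Runx2 locus had 81.7%, 80.6% and 82.2% in DKO and 78.6%, 79.4% and 79.2% in WT, a difference of 2.40 ± 0.518 points. At both loci the DKO and WT samples did not overlap (two-sided exact permutation p = 0.1 each, n = 3 each, the smallest possible). The Runx3 locus, which was chosen by this contrast, had 76.5%, 76.9% and 74.9% in DKO and 69.8%, 68.1% and 68.2% in WT, a difference of 7.40 ± 0.825 points.

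The differences at Runx1 and Runx2 were set against that of all autosomal CpGs within each sample. The Runx1 locus lay 3.43 ± 0.835 points above the autosomal level in DKO and 0.838 ± 0.114 points above it in WT (SD, n = 3; exact permutation p = 0.1). The Runx2 locus was at -0.134 ± 0.0785 points relative to it in DKO and at -1.75 ± 0.624 points in WT (exact permutation p = 0.1, n = 3 each). For Runx3 the same quantity was -5.54 ± 1.79 points in DKO and -12.2 ± 0.898 in WT, so the locus stayed below the autosomal level in both groups. Runx1 minus Runx2 was 3.57 points in DKO and 2.58 points in WT, and the groups overlapped (exact permutation p = 0.2, n = 3 each). Runx1 and Runx2 were thus not shown to differ in the size of their DKO effect.

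The difference was then followed along each gene, with segments set by the placed starts. In Runx1 the 129 kb between the starts, its long intron, had 81.6%, 78.5% and 79.9% in DKO and 76.2%, 73.6% and 73.5% in WT. This difference of 5.62 ± 1.25 points separated the groups (exact permutation p = 0.1, n = 3 each). Upstream of P1 the groups differed by 0.785 points (exact permutation p = 0.3), and downstream of P2 by 1.68 points (exact permutation p = 0.2), and in both the groups overlapped. Taken within each sample, the segment between the starts lay 11.5 ± 1.62 points below the upstream segment in DKO and 16.3 ± 1.81 points below it in WT, a narrowing of 4.83 points (exact permutation p = 0.1, n = 3 each). Against the segment downstream of P2 the narrowing was 3.93 points, with overlapping groups (exact permutation p = 0.2, n = 3 each).

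In Runx2 the segment upstream of P1, of which only 3 windows could be tested, had 93.5% ± 0.289 in DKO and 89.1% ± 1.82 in WT (SD; exact permutation p = 0.1, n = 3 each). The segment from P1 to the middle of the CpG-densest stretch differed by 1.22 points, with overlapping groups (exact permutation p = 0.6, n = 3 each). This sum of reads includes part of that stretch and all of the low-methylated stretch from 44913001 to 44915000. Their part in the size of the difference was not tested. Per window, all DKO samples were above the WT samples in 5 of the 30 tested windows of this segment (16.7%), against 9.05% of all tested windows. The 263 kb downstream of the middle of the CpG-densest stretch had 86.5%, 82.9% and 85.3% in DKO and 81.5%, 82.0% and 82.7% in WT. This was a difference of 2.79 points (exact permutation p = 0.1, n = 3 each), and 33 of its 169 tested windows (19.5%) had that order. In Runx3 the groups were apart in all 3 segments. The differences were 7.61 points upstream of P1, 8.92 points over the 31.9 kb between the starts and 6.21 points downstream of P2. The spread of a few points between segments of Runx3 was not tested.

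**Figure D2:**
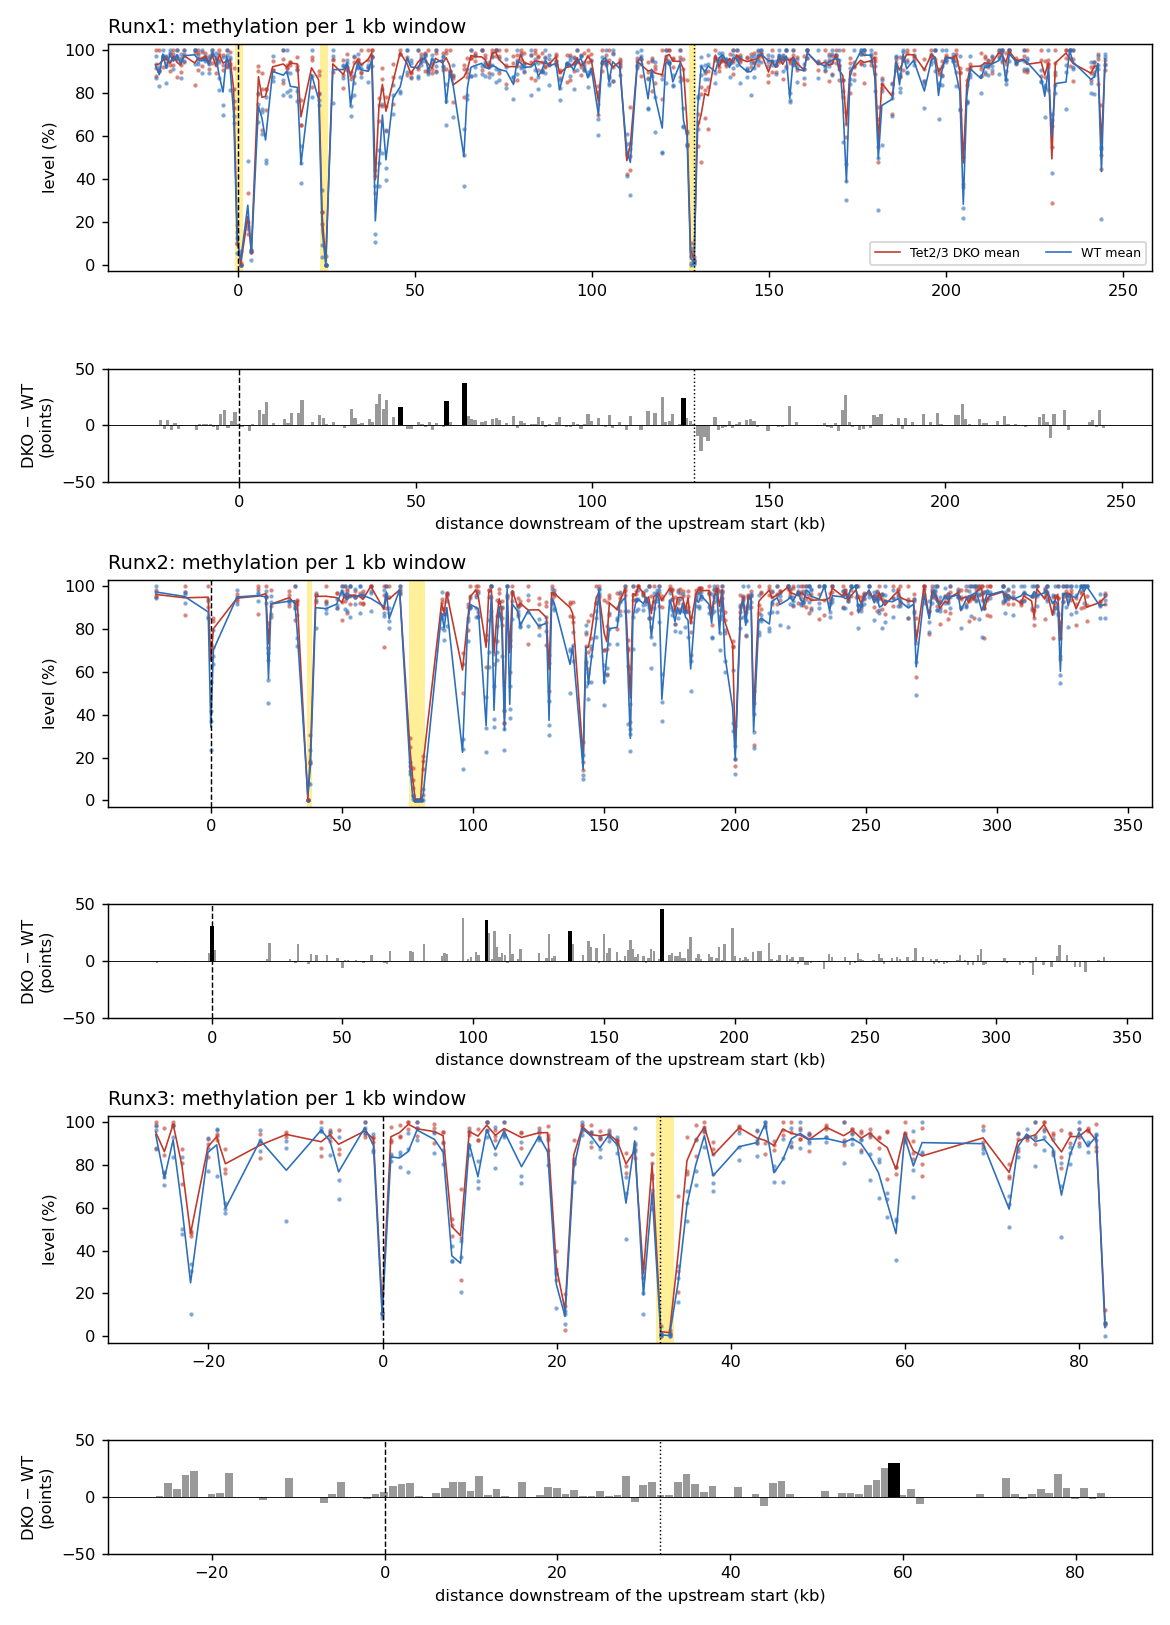
Methylation level of each tested 1 kb window (upper panel of each pair; points are samples, lines join the means of tested windows, red Tet2/3 DKO, blue WT) and the difference DKO minus WT in points (lower panel, black bars for called windows), against the distance in kb downstream of the upstream start; the dashed line is P1, the dotted line the placed P2 and yellow marks low-methylated stretches. The differences are mostly above 0, and in Runx1 the windows next to the P2 stretch on its downstream side go below it, to -22.6 points.

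Reads were next summed over 1 kb windows, and 489 of the 743 windows with a CpG had enough reads to be tested (a minimum of 3 CpGs, and of 20 reads in each library). A window was called if its Benjamini-Hochberg adjusted p over all autosomal windows was under 0.05 and its difference at least 10 points. In Runx1 4 of 204 tested windows were called higher in DKO and in Runx2 4 of 202, against a background of 0.49% of 774732 autosomal windows. In Runx3, which this contrast chose, 1 of 83 windows met the same rule; it is listed as a description. The loci had 0 windows called lower by the quasi-binomial test, against a background of 0.00723%, where 7 of the 489 windows passed an unadjusted p of 0.05; limma on log2 ratios called 0 lower, and 3 were called lower when the reads of each group were pooled for Fisher's exact test. The DKO samples were all above the WT samples in 29 windows of Runx1 (14.2%), 38 of Runx2 (18.8%) and 28 of Runx3 (33.7%), against 9.05% of all tested windows. The reverse order occurred in 6, 4 and 0 windows, against 3.75% of all tested windows. The calls did not survive the loss of a sample: without DKO replicate 1 or 2, or without WT replicate 1 or 2, 0 of the 9 were called, and without DKO replicate 3 or WT replicate 3 only the Runx2 window at 44779001 was.

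The 4 called windows of Runx1 all lay between its starts. The window from 92762001 to 92763000, 63.3 kb downstream of P1, had 78.3%, 91.2% and 93.3% in DKO and 63.5%, 51.2% and 36.8% in WT (20 CpGs, 38 to 113 reads; adjusted p = 0.0127, quasi-binomial test). The window at 92767001 had 100%, 91.1% and 98.6% in DKO and 65.2%, 84.2% and 76.4% in WT (adjusted p = 0.0355, same test), and that at 92780001 had 100%, 98.4% and 98.4% in DKO and 87.5%, 81.1% and 80.2% in WT (adjusted p = 0.00902, same test). The window at 92780001 was already above 80% in every WT sample, whereas that at 92762001 was near the middle of the scale in WT. The fourth, from 92700001 to 92701000, lay close upstream of the CpG-dense P2 and had 91.1%, 86.4% and 95.9% in DKO and 73.2%, 64.7% and 64.4% in WT (24 CpGs; adjusted p = 0.0223, same test).

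On the other side of the same P2 island the order was reversed. The Runx1 window with the lowest difference, from 92695001 to 92696000, had 79.8%, 47.7% and 82.7% in DKO and 92.7%, 96.9% and 88.5% in WT, a difference of -22.6 ± 11.5 points (SE; 51 CpGs, 61 to 356 reads). It did not pass (adjusted p = 0.101, quasi-binomial test), and DKO replicate 2 stood apart from the other DKO samples. Over the CpGs read in every sample, each with the same weight, the difference was -21.3 points. Of the 3 Runx1 windows with the largest differences, the other two, at 92786001 and 92654001, had differences of 27.3 and 27.0 points and did not pass (adjusted p = 0.241 and 0.218, quasi-binomial test). With the same CpG weights these came to 9.25 and 10.3 points, with overlapping groups.

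One called window of Runx2 holds the P1 start. From 44951001 to 44952000 the DKO samples had 73.2%, 66.7% and 55.4% and the WT samples 37.1%, 41.9% and 23.8% (11 CpGs, 35 to 92 reads; adjusted p = 0.0447, quasi-binomial test). With the same weight for each of its 11 CpGs the difference was 13.8 points in place of 30.8, so its size changed with the weight of each CpG, and the groups stayed apart. This window overlaps the interval around the Runx2 start described above and is not a separate measurement.

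The other called windows of Runx2 lay farther into the gene. The largest difference was at 44779001 to 44780000, 171.6 kb downstream of P1, with 90.3%, 94.0% and 95.7% in DKO and 45.8%, 36.8% and 58.8% in WT (8 CpGs, 23 to 93 reads; adjusted p = 0.00250, quasi-binomial test). The window at 44846001 had 62.3%, 77.2% and 75.0% in DKO and 48.2%, 34.0% and 22.5% in WT (adjusted p = 0.0344, same test). That at 44814001 had 92.4%, 86.0% and 91.7% in DKO and 70.7%, 69.8% and 50% in WT (adjusted p = 0.0434, same test). In all of them the WT samples spread more widely than the DKO samples. The WT levels there lay nearer the middle of the scale. Runx2 windows had a median of 46 reads in WT and 62.5 in DKO. The part of read sampling in this spread was not tested. The window at 44855001, second by difference with 38.4 points, missed the threshold (adjusted p = 0.0607, quasi-binomial test), at 60.9% ± 9.73 in DKO and 22.5% ± 7.19 in WT (SD, n = 3 each). The lowest difference in Runx2 was -12.2 points, at 44637001, where DKO had 85.4% ± 3.48 and WT 97.5% ± 2.24 (adjusted p = 0.140, quasi-binomial test).

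In Runx3 the largest difference was in the called window, from 134735001 to 134736000, which lies 58.4 kb downstream of P1. It had 79.1%, 79.1% and 75.6% in DKO and 53.6%, 54.7% and 35.4% in WT (18 CpGs, 41 to 139 reads), a difference of 30.0 points. Over the 8 CpGs read in every sample, equally weighted, it was 6.29 points, with 64.9% in DKO and 58.6% in WT. The neighbouring window at 134734001 was second, with 73.2%, 95.3% and 95.7% in DKO and 64.3%, 66.7% and 55.6% in WT. The third, at 134654001 and upstream of P1, had 46.7%, 48.9% and 48.3% in DKO and 10.3%, 30.5% and 33.9% in WT. The lowest difference in Runx3 was -7.92 points, at 134720001, with overlapping groups; over its 4 CpGs read in every sample, equally weighted, it was -14.0 points with all DKO samples below the WT samples.

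**Figure D3:**
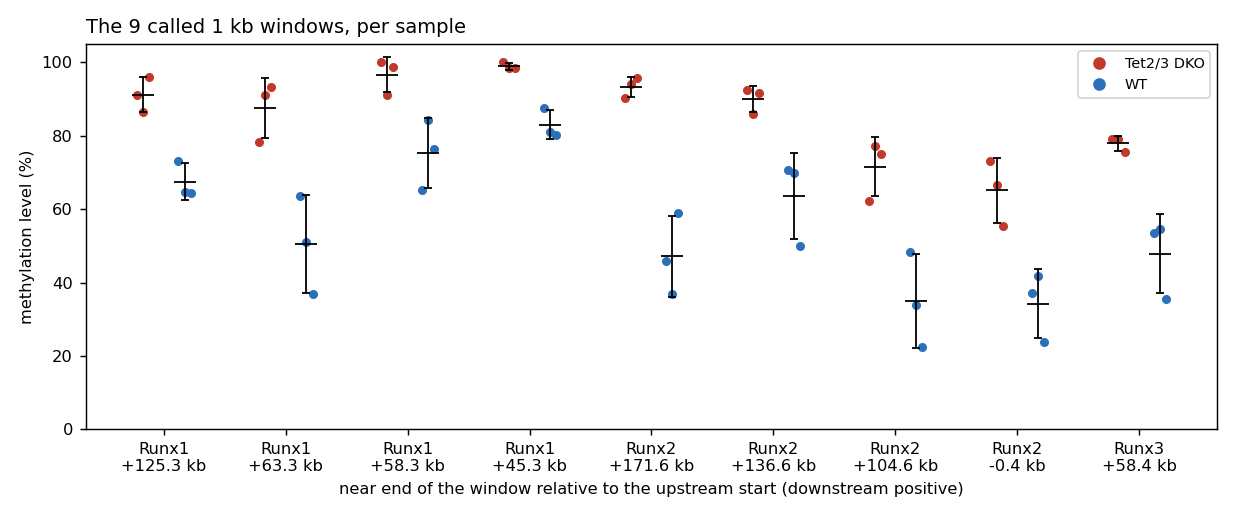
Methylation level in percent of the 9 called 1 kb windows in each sample (red, left, Tet2/3 DKO; blue, right, WT; bars for mean and SD, n = 3), labelled by the distance of the near end of the window from the upstream start. In all 9 windows every DKO sample lies above every WT sample, by 16.0 to 46.2 points between the means.

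Windows with the groups apart also lay side by side, and 1.49% of all tested autosomal windows were in a run of at least 2 adjacent windows, each with all DKO samples above the WT samples. Runx1 had 2 such runs with 1.96% of its tested windows, Runx2 had 4 with 4.46% and Runx3 had 4 with 13.3%. In Runx1 the run from 92808001 to 92810000, 16.3 kb downstream of P1, had 83.5% ± 5.72 in DKO and 64.3% ± 3.82 in WT (SD, n = 3 each). In Runx2 the run from 44845001 to 44847000 had 84.9% ± 2.92 in DKO and 51.2% ± 11.98 in WT, and that from 44768001 to 44771000 88.4% ± 1.62 in DKO and 78.7% ± 1.21 in WT. In Runx3 the run from 134733001 to 134736000 had 84.9% ± 4.64 in DKO and 58.2% ± 8.61 in WT. The longest run, 4 windows of Runx3 from 134676001 to 134680000 that begin at P1, had 77.1%, 64.9% and 73.8% in DKO and 53.0%, 58.2% and 69.8% in WT, and with its reads summed the groups overlapped. These runs were chosen by the order of the groups and are given without a test.

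Low-methylated parts of the loci lay both at starts and away from them: of 11 such stretches and single windows, 5 held a placed start. A low-methylated stretch was taken as at least 2 adjacent windows with a mean under 20% over all 6 samples. Runx1 had 3 of them. The first covers P1 from 92825001 to 92827000, with 5.08% ± 1.88 in DKO and 5.03% ± 1.01 in WT (SD, n = 3; exact permutation p = 1). The second covers P2 from 92697001 to 92699000, with 3.72%, 4.23% and 4.07% in DKO and 1.43%, 0.612% and 2.70% in WT (135 CpGs), a difference of 2.43 points (exact permutation p = 0.1, n = 3 each). That is a small part of the scale, and mitochondrial DNA differed by 0.437 points in the same direction; the part of conversion in the value was not tested. The third has no placed start and lies 23.3 to 25.3 kb downstream of P1, in the long intron where a blood stem cell enhancer of Runx1 is known; whether it is that enhancer was not tested. It had 9.78%, 9.25% and 9.35% in DKO and 13.4%, 1.85% and 2.35% in WT (30 CpGs, 67 to 184 reads), with overlapping groups (exact permutation p = 0.4, n = 3 each). Over the 3 stretches together Runx1 differed by 2.17 points (exact permutation p = 0.1, n = 3 each). With stretches bounded at 10% this was 2.43 points (exact permutation p = 0.1). It was 1.30 points when bounded at 30% and 1.14 points over CpGs with a read in every sample (exact permutation p = 0.3 each).

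Runx2 had 2 such stretches. The larger, from 44870001 to 44876000, had 3.77%, 4.49% and 3.92% in DKO and 2.25%, 1.20% and 2.60% in WT, a difference of 2.05 points (exact permutation p = 0.1, n = 3 each). The smaller, from 44913001 to 44915000, holds the placed start of Supt3, a gene that overlaps Runx2 and encodes a subunit of transcriptional coactivator complexes. It had 7.11% ± 0.560 in DKO and 6.80% ± 4.54 in WT (exact permutation p = 0.9, n = 3 each). Over the 2 stretches together Runx2 differed by 1.45 points, with overlapping groups (exact permutation p = 0.3, n = 3 each). The start of the non-coding Runx2os3 was methylated in both groups, at 93.5% ± 2.55 in DKO and 92.5% ± 5.66 in WT (exact permutation p = 0.9, n = 3 each). In Runx3 the only such stretch covers P2, from 134708001 to 134710000, with 1.89% ± 1.93 in DKO and 0.544% ± 0.471 in WT. That difference of 1.35 points became 0.262 points when DKO replicate 1 was left out, and leaving out DKO replicate 3 gave 2.1 points.

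The flanks of these stretches were also compared, over 2 kb on either side. In Runx2 they had 88.4% ± 2.31 in DKO and 81.4% ± 2.54 in WT, a difference of 6.93 ± 1.98 points that separated the groups (SE; exact permutation p = 0.1, n = 3 each). Over CpGs with a read in every sample it was 5.63 points, and with 1 kb flanks 6.75 points (exact permutation p = 0.3 each). With stretches bounded at 10% it was 7.76 points (exact permutation p = 0.2). In each of these alternatives the groups overlapped. The largest difference on one side of a stretch was downstream of the CpG-densest one, where the DKO samples had 56.5%, 72.3% and 56.4% and the WT samples 46.3%, 43.2% and 34.0%. In Runx1 the flanks had 71.8% ± 7.77 in DKO and 67.5% ± 5.82 in WT and overlapped (exact permutation p = 0.5, n = 3 each). The sides varied there, which was not tested. Upstream of P1 the level was 88.8% ± 3.31 in DKO and 80.1% ± 2.90 in WT, with the groups apart (exact permutation p = 0.1, n = 3 each). Downstream of the P2 stretch it was 67.1% ± 11.9 in DKO and 83.7% ± 6.84 in WT, with overlapping groups (exact permutation p = 0.2, n = 3 each). On every other side of a Runx1 stretch the groups overlapped as well. The Runx1 flank difference was 7.94 points without DKO replicate 2, 0.216 points without DKO replicate 1, 7.16 points without WT replicate 1 and 1.35 points without WT replicate 3. In Runx3 the flanks of P2 had 47.9%, 56.3% and 58.5% in DKO and 46.8%, 31.9% and 39.9% in WT, a difference of 14.7 points. Outside the stretches and flanks, the rest of the Runx1 locus had 91.2% ± 0.376 in DKO and 87.4% ± 0.349 in WT, and that of Runx2 90.0% ± 0.481 in DKO and 85.9% ± 0.360 in WT (exact permutation p = 0.1 each, n = 3 each).

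Per window, the differences were larger at intermediate methylation than at high or low methylation. Windows were classed by their mean over all 6 samples. A window whose mean lies near either end of the scale has little room for a difference, so the classing itself favours this order. In the class of 50 to 80%, Runx1 had 71.7% ± 3.02 in DKO and 58.9% ± 1.14 in WT (21 windows), Runx2 77.6% ± 2.15 in DKO and 58.7% ± 1.67 in WT (20 windows) and Runx3 82.0% ± 2.84 in DKO and 63.1% ± 1.54 in WT (11 windows; SD, n = 3). These differences were 12.8, 18.9 and 18.9 points, against 6.45 points for all 79655 autosomal windows of the class. In the class of 10 to 50% the groups overlapped in Runx1 and were apart in Runx2 and Runx3. The differences were 8.32 ± 4.97 (SE), 15.01 and 11.12 points, over 5, 11 and 8 windows, against 6.24 points for all autosomal windows. In the class of 80% or more they were 2.41, 2.36 and 4.55 points, against 0.802 points for all autosomal windows. In the class below 10% they were 1.10, 1.14 and 2.18 points, over 5, 5 and 3 windows, against 0.856 points.

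Windows of intermediate level were more frequent in Runx3 than over the autosomes, and about as frequent in Runx1 and Runx2. Those at 10 to 80% made up 12.7% of the tested windows in Runx1, 15.3% in Runx2 and 22.9% in Runx3, against 14.8% of all. If each window is given the mean difference of all autosomal windows in its 10-point class of level, the mean over the windows would be 1.44 points in Runx1, 1.53 in Runx2 and 2.01 in Runx3. The measured means over the windows were 3.59, 4.66 and 7.0 points. The excess over windows of like level is given as a description and was not tested.

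**Figure D4:**
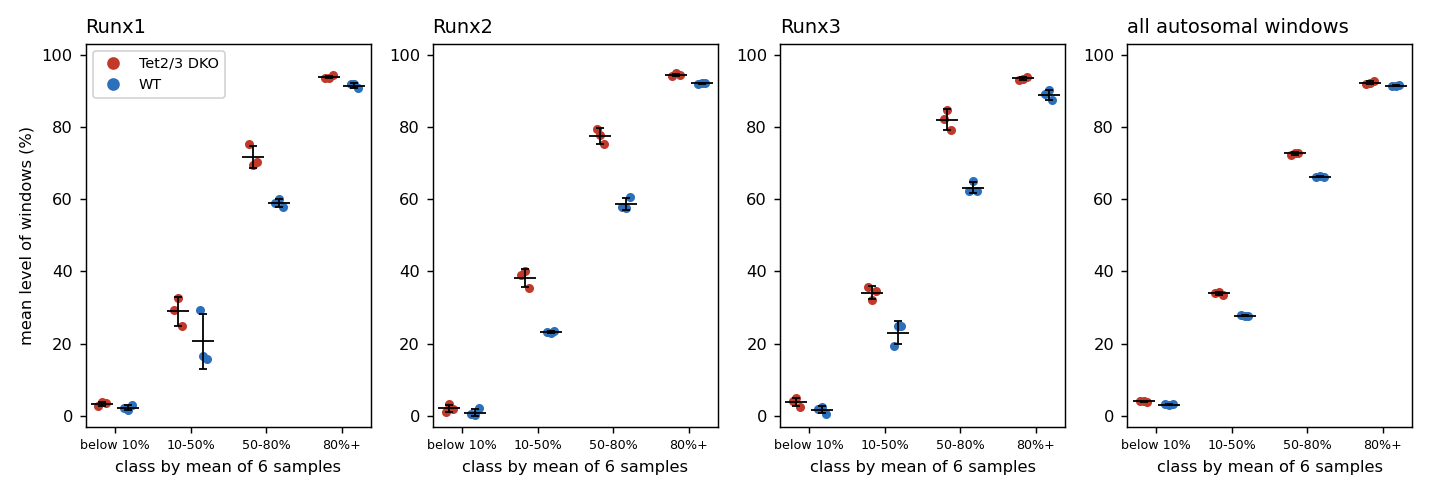
Mean level in percent of the tested 1 kb windows of each Runx locus and of all autosomes, in 4 classes of the mean over all 6 samples; points are the samples (red, left, Tet2/3 DKO; blue, right, WT), bars the mean and SD. In the class of 50 to 80% the groups are 12.8 to 18.9 points apart in the Runx loci and 6.45 points apart over all autosomal windows.

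Promoters of genes whose proteins work with RUNX factors were compared with the same test, over 13 genes (Cbfb, Runx1t1, Cbfa2t2, Cbfa2t3, Tle1, Tle2, Tle3, Tle4, Smad3, Ets1, Kmt2a, Crebbp and Ep300). Of these, 11 genes with 13 starts could be tested. All 13 starts had a mean level under 10%, against 66.7% of the 18591 autosomal starts tested. The quasi-binomial test called 0 of the 13, against 0% of all starts, and 1 passed an unadjusted p of 0.05. Cbfb, the partner of all RUNX proteins, had 0.404% ± 0.355 in DKO and 0% in each WT sample (adjusted p = 0.526, same test). A start of Cbfa2t3, a corepressor of the ETO family, had 5.95%, 3.99% and 10.6% in DKO and 0.866%, 0.560% and 0% in WT (136 CpGs; adjusted p = 0.491, same test). It was the only start of the list with every DKO sample above every WT sample, an order found at 10.5% of all starts.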

How the data were processed

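The values are counts that the authors deposited as 1 table, per the file headers: for every CpG and library, methylated reads and total reads, neither normalised nor pooled. The submitters' processing notes name BSMAP 2.74 and the build mm9. Read filters, trimming and duplicate removal are not given in these sources. The table listed 20451903 CpGs, 0 of them repeated.

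Reads were summed over CpGs of intervals and of 1 kb windows. A read is counted at each CpG it covers. A quasi-binomial logistic model of 2 groups was fitted to the 774732 autosomal windows that had 3 or more CpGs and 20 or more reads in each library. Its Pearson dispersion had a floor of 1 and was shrunk as in limma's squeezeVar (23.7 prior degrees of freedom), and Benjamini-Hochberg adjustment ran over all these windows. The prior outweighs the spread within a window. For single values, exact permutation tests were used, two-sided. Named windows were the called ones and, in each locus, the 3 largest differences and the lowest. RefSeq promoters were placed by CpG spacing (19255 of 31396). Python 3.11.15, numpy 2.4.6 and scipy 1.17.1 were used.

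The members, lists and tests were chosen with earlier results of these data known; the placing of P1 of Runx1 and Runx2, segments, same CpG weights, adjacent runs and level-matched means were added after seeing the data. Same-numbered samples of the groups deviated together only very weakly over windows (r = 0.00332 to 0.00359, against -0.00204 to -0.00136 for other numbers). The numbers were therefore not taken as pairs. No replicates agreed within sampling noise in reads per megabase (chi-square per degree of freedom 11.8 to 117; DKO replicate 2 stood most apart, at 117 and 81.3 against DKO replicates 1 and 3).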

Additional observations from a re-analysis of the deposited data

How the results depend on the processing

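The called windows depended on the library and on the settings. Against 9 calls in the Runx loci, leaving out each sample gave 0 to 1 calls, with 84 to 99 windows past an unadjusted p of 0.05. The 1 that remained without DKO replicate 3, and likewise without WT replicate 3, was the Runx2 window at 44779001. A minimum of 10 reads gave 1 call and one of 40 reads 0 (51 of 222 past an unadjusted p of 0.05); 500 bp windows gave 0 (48 of 339), limma on log2 ratios 0 (62 of 489) and the replicate block 0 (74 of 489). Fisher's exact test on pooled reads, which ignores the spread between samples, gave 76, 73 of them higher. Windows of 5 kb gave 9. Centring on the autosomal difference kept all 9, but it moved only the 10-point rule and not the p-values. It could therefore not remove these calls. In the settings with 1 kb windows the difference of each called window kept its sign. The cause of the lost calls was not tested.

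The Runx3 locus differed by 8.76 points over CpGs with a read in every sample and by 12.04 points over the 12 CpGs with at least 5, and the inside of its stretch by 2.80 points when bounded at 30%. The Runx1 flank difference was -3.22 points with stretches bounded at 10%, against 4.32 points. Runx1 P1 minus P2 was 0.927 points with 250 bases on either side of the start and 10.5 points with 1000, against -0.750 points with 500; Runx2 P1 minus the CpG-densest stretch was 19.0 points with 250 and 62.6 with 1000, and Runx3 P1 minus P2 was 7.15 points with 250 and 35.2 with 1000. Without each sample the Runx2 value was 32.1 to 40.6 points and the Runx3 value of P1 minus P2 10.9 to 13.2 points, with an exact permutation p of 0.0625, the smallest that 5 samples allow. The locus differences at Runx1 and Runx2 were 2.12 to 3.60 and 2.05 to 5.07 points over their alternatives. The replicate block cannot change these means, and its exact sign-flip permutation p was 0.25, the smallest that 3 pairs allow. The partner promoters had 0 calls in every alternative run. Depth limits single CpGs: 51, 35 and 12 CpGs of Runx1, Runx2 and Runx3 had at least 5 reads in every sample.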
